A study of Mus musculus with 18 samples.

Results

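Matrix metalloproteinases are zinc-dependent endopeptidases that cut the proteins of the extracellular matrix, and the tissue inhibitors of metalloproteinases (TIMPs) block them. The set described here holds 7 metalloproteinase genes (Mmp2, Mmp3, Mmp7, Mmp10, Mmp12, Mmp13 and Mmp14) and 3 inhibitor genes (Timp1, Timp2 and Timp3). They were chosen by gene symbol among array probe sets annotated to exactly 1 gene, and are 10 of the 12877 genes tested. Of 45101 probe sets, 21 belong to them; 19 passed a filter on low signal, and each of the 10 genes kept at least 1.

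The study followed colitis-associated carcinogenesis in male ICR mice, 6 weeks old at the start, on Affymetrix Mouse Genome 430 2.0 arrays. Azoxymethane (AOM), a carcinogen, was injected once at 10 mg/kg, and dextran sulphate sodium (DSS), a polymer toxic to the epithelium of the colon, was added to the drinking water in up to 3 cycles (2% on days 8 to 14, then 1.5% on days 29 to 33 and 50 to 54). The 18 arrays form 6 groups of 3 biological replicates, all of total RNA from colorectum: normal mucosa (day 14) of mice that had only saline and distilled water, acutely inflamed mucosa at 2 weeks (day 14, end of cycle 1), LGD, which is dysplasia of low grade, at 4 weeks (day 28, cycle 1 only), HGD, which is dysplasia of high grade, at 6 weeks (day 42, after 2 cycles), HGD with active inflammation at 8 weeks (day 56, after 3 cycles) and carcinoma at 20 weeks (day 140, after 3 cycles). No group received AOM or DSS alone, and every normal sample came from day 14, so the effects of the agents, and of stage and age after 2 weeks, cannot be told apart.

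Most of these enzymes are secreted or displayed as inactive proenzymes and are switched on when the prodomain is removed. The stromelysin Mmp3, the collagenase Mmp13 and the gelatinase Mmp2 are known mainly from stromal cells of injured gut, the second stromelysin, Mmp10, from epithelium at the edge of human ulcers, Mmp12 from macrophages, and Mmp7 (matrilysin) from epithelium, including intestinal adenomas of mice. TIMPs bind the active site of the enzymes; Timp1 is the inducible soluble member, Timp2 also takes part in the activation of proMmp2 by the membrane enzyme Mmp14, and Timp3 stays bound to the matrix.

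Values are the deposited signals, linear intensities per probe set (median over all probe sets and arrays 56.6), given below as replicates 1, 2 and 3 of a group. Changes are differences of log2(signal + 16) with the standard error (SE) of a limma model over all 18 arrays, which understate the fold change of dim genes. A change is called when its Benjamini-Hochberg adjusted p over the 12877 genes is under 0.05, and groups are called not overlapping when all 3 arrays of one lie above all 3 of the other. A gene with several probe sets is represented by the brightest one that passed. The 5 comparisons with normal mucosa share the same 3 normal arrays.

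Tissue composition differed between the groups, and single arrays stood apart. Of 12 general epithelial markers, 12 fell in inflamed mucosa, where their summed signal was 1185 to 29872 against 61670.2 to 64747 in normal mucosa, with the lowest value in inflamed replicate 2. In the same comparison 9 of 10 fibroblast markers rose (summed signal 48871 to 68848 against 23174 to 26245), as did 9 of 9 tested neutrophil markers (32891 to 60240.2 against 382 to 479), 9 of 10 macrophage markers (24498 to 33653 against 8512 to 11199) and 5 of 5 endothelial markers (3209 to 4826 against 839.6 to 1062), while 0 of 6 smooth muscle markers passed (24125 to 32818 against 32107 to 46311). Smooth muscle transcripts were present in both of these groups, although the labels call the tissue mucosa. Of 5 genes on a list for differentiated colonocytes (Car1, Car4, Slc26a3, Aqp8 and the goblet cell gene Muc2) 4 fell (317 to 8305 against 29711 to 44831). Of the 3 tested genes of a Paneth cell list Itln1 and Ang4 fell, with changes of -4.92 and -6.58, while Lyz1, which macrophages also express, rose. The defensin genes of that list, Defa24 and Defa17, were not tested, so its 3 genes do not by themselves show Paneth cells. Among the lesions, neutrophil markers summed to 54114, 6104 and 932 in LGD replicates 1, 2 and 3 and to 23954, 1604 and 12425 in those of HGD at 8 weeks. Their part in the results below was not tested, and in whole tissue fewer cells of a type and less RNA per cell cannot be told apart.

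Of the 7 metalloproteinase genes, 5 lie on mouse chromosome 9 in a run of 10 protein-coding Mmp genes (Mmp13, Mmp12, Mmp1b, Mmp3, Mmp1a, Mmp10, Mmp8, Mmp27, Mmp20 and Mmp7, in this order). The promoters of the 5 chromosome 9 genes are shown because they share a short element at a like distance from the annotated start, and that of Timp1, which moved with several of them, because it lacks it. Each line gives the 100 bases before an annotated start (RefSeq, GRCm38.p6, plus strand), 5′ to 3′, and capitals mark TGANTCA, the element bound by AP-1, the dimer of Fos and Jun proteins.
Mmp3, chr9:7445722-7445821: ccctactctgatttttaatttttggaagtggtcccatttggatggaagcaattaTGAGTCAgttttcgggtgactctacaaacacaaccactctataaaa
Mmp10, chr9:7502242-7502341: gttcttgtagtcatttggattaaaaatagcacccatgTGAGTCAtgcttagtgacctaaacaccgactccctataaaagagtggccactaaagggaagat
Mmp13, chr9:7272414-7272513: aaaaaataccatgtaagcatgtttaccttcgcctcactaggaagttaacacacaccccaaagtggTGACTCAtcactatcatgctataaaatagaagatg
Mmp12, start 2, chr9:7347274-7347373: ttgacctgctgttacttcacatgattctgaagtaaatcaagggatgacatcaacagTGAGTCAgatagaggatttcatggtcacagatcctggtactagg
Mmp7, start 1, chr9:7691990-7692089: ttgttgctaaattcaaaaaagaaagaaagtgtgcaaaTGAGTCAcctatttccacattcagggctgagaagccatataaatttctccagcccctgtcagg
Timp1, chrX:20870066-20870165: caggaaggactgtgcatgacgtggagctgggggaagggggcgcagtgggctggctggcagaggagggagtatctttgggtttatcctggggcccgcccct

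The table of promoters, each from 250 bases before to 50 after a start, held 9 of the 10 genes. AP-1 letters were found in 5 of the 5 chromosome 9 genes and in 0 of the other 4 (Mmp14, Timp1, Timp2 and Timp3). They were in 7.81% of all 32851 promoters (TGANTCA reads the same on both strands). The gene counts here take a match at any start (2 each for Mmp12 and Mmp7), while the shares are per promoter. The match began at -46 in Mmp3, -63 in Mmp10, -35 in Mmp13, -44 at the second start of Mmp12 and -63 at the first start of Mmp7. The other start of Mmp12 and of Mmp7 held none. TATAAA, the TATA box, was likewise found in 5 of the 5 and 0 of the 4 (13.6% of all promoters, both strands searched). Its position varied. It began at -29 in Mmp10, -16 in Mmp13, -7 in Mmp3, -123 and -26 at the first start of Mmp7, and 4 after the second start of Mmp12. The other start of these last 2 genes held none. AGGAAG, the PEA3 or ETS element, was in 4 of the 5 and 3 of the 4 (35.4% of all), in Mmp12 only at the first start, which lacks AP-1 letters. CTTTGA, the TCF element of Wnt signalling, was in Mmp7 at both starts and in Timp1 (5257 of the 32851). No searched motif overlapped an AP-1 match. These matches describe the letters only; the arrays do not measure binding.

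**Figure D1:**
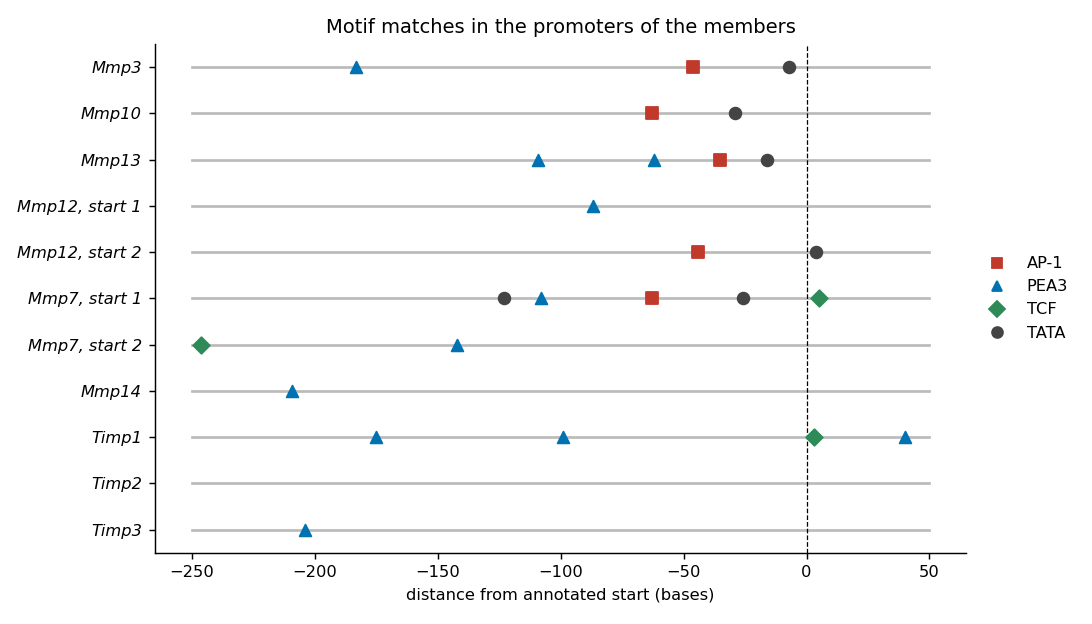
Matches to 4 motifs in the promoters of 9 of the 10 genes, by distance from the annotated start in bases (from 250 before to 50 after), 1 line per start. Red squares (AP-1) sit between 63 and 35 bases before the start in Mmp3, Mmp10, Mmp13, Mmp12 (start 2) and Mmp7 (start 1), and are absent from the lower 4 lines.

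In acutely inflamed mucosa at 2 weeks, 9 of the 10 genes rose against normal mucosa, and Mmp7 did not pass. The largest changes were in the stromelysins Mmp3 and Mmp10, in the collagenase gene Mmp13 and in Timp1, and the smallest calls were Timp2 and Timp3. Of all genes tested, 22.6% rose in this comparison and 24.3% fell. The same 9 genes had inflamed arrays above every normal array, which held for 29.3% of all genes, and for 30.8% with inflamed lower. The median log2 change of the 10 genes was 2.60, against 0.01 over all genes. Each of the 9 calls was kept under all 17 alternative settings, among them leaving out any 1 array of either group.

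The stromelysins cleave proteoglycans and basement membrane proteins and activate other proenzymes. Mmp3 (probe set 1418945_at) had signals of 2662, 10577 and 12004 in inflamed mucosa, against 60.5, 42.3 and 51.5 in normal mucosa. The groups lay far apart, with inflamed replicate 1 the lowest of its group, and the change was 6.70 ± 0.83 (adjusted p = 2.26e-05), 104-fold on this scale. Later, Mmp3 stood at 922, 611 and 348 in LGD, 193, 122 and 68.4 in HGD at 6 weeks, 2118, 99.4 and 259 in HGD at 8 weeks and 135, 303 and 359 in carcinoma. By group mean the order was inflamed, LGD, HGD at 8 weeks, carcinoma, HGD at 6 weeks and normal; the inflamed arrays lay above LGD and those of HGD at 6 weeks above normal, while the neighbours in between overlapped. At 8 weeks replicate 1 lay just below the lowest inflamed array and far above the other 2 arrays of its group.

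Mmp10 (1420450_at) had 2403, 12181 and 8315 in inflamed mucosa, against 84.0, 60.1 and 86.6 in normal mucosa. It rose by 6.09 ± 0.76 (adjusted p = 2.27e-05). In the lesions Mmp10 stood at 2143, 967 and 309 in LGD, 1125, 555 and 169 in HGD at 6 weeks, 1075, 898 and 1427 in HGD at 8 weeks and 416, 1549 and 1107 in carcinoma, so every array of each lesion lay above every normal array. Unlike Mmp3, whose 3 arrays at 8 weeks spanned 2118, 99.4 and 259, the 3 arrays of Mmp10 at that time lay close together. The group order was inflamed, HGD at 8 weeks, carcinoma, LGD, HGD at 6 weeks and normal, with overlap between all neighbours other than the first and the last pair.

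Mmp13 (1417256_at), the main collagenase of mice, had 2669.5, 8625 and 8623 in inflamed mucosa, against 126, 94.0 and 85.5 in normal mucosa. The change was 5.65 ± 1.02 (adjusted p = 4.13e-04). Its lesion values were scattered: 2461, 605 and 173 in LGD, 1311, 474 and 138 in HGD at 6 weeks, 1346, 105 and 824 in HGD at 8 weeks and 456, 1882 and 822 in carcinoma. Replicate 1 was the highest array of LGD and of both HGD groups, and replicate 2 at 8 weeks lay within the normal range. Carcinoma came second after inflamed mucosa by mean, and the 4 lesion groups overlapped one another.

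Mmp12 (1449153_at), macrophage elastase, differed from the 3 genes above in that its highest group mean was HGD at 6 weeks. Its signals were 119, 170.4 and 199 in inflamed mucosa, against 27.8, 31.5 and 24.6 in normal mucosa, a rise of 2.00 ± 0.56 (adjusted p = 0.00828). All 3 normal arrays lay under the median signal of 56.6, so the size depends on the pseudocount and ran from 1.29 to 2.48 over the 17 alternatives. The lesion signals were 193, 271 and 42.8 in LGD, 158, 432 and 253 in HGD at 6 weeks, 44.9, 220.4 and 187 in HGD at 8 weeks and 111, 181 and 158 in carcinoma. Every array of each group lay above the normal arrays, and all neighbours among the 5 treated groups overlapped. Macrophage markers summed to 10057 to 15687 in LGD, 10762 to 12689 in HGD at 6 weeks, 8547 to 14541 in HGD at 8 weeks and 9009 to 11672 in carcinoma. Their sums were 8512 to 11199 in normal and 24498 to 33653 in inflamed mucosa. The part of macrophages in the level of Mmp12 was not tested.

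Mmp7 (1449478_at), matrilysin, an epithelial enzyme that cleaves several matrix and cell surface proteins, was at 62.3, 62.8 and 51.7 in inflamed mucosa, against 42.1, 181 and 53.6 in normal mucosa. The groups overlapped, and the change was -0.31 ± 1.19 (95% interval -2.85 to 2.23, adjusted p = 0.857). This SE pools the spread of all 6 groups, while the SD was 0.12 in inflamed and 0.95 in normal mucosa. In the lesions the signals were 4071, 1187 and 198 in LGD, 1534, 2628 and 2261 in HGD at 6 weeks, 83.9, 4325 and 3768 in HGD at 8 weeks and 1035, 1626 and 1630.3 in carcinoma. All arrays of LGD, HGD at 6 weeks and carcinoma lay above every normal array, while at 8 weeks replicate 1 lay inside the normal range and the other 2 arrays held the highest and the third highest of the 18 values. By mean the 4 lesion groups came first and overlapped one another, with normal and inflamed mucosa below them.

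**Figure D2:**
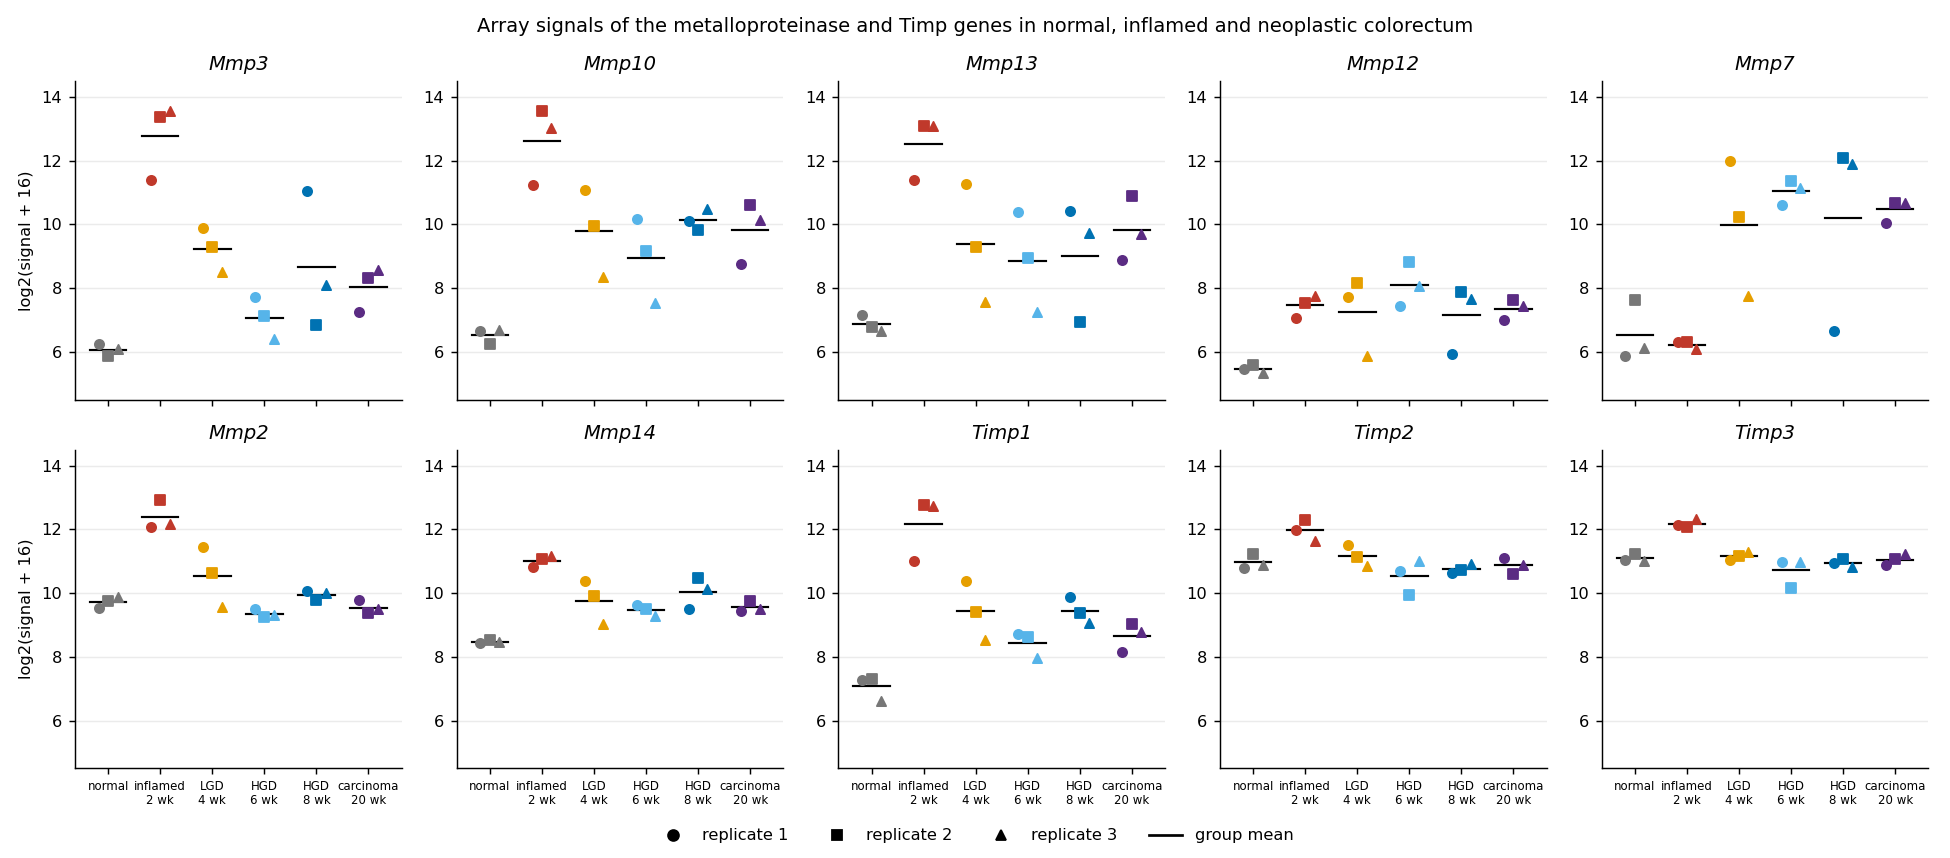
log2(signal + 16) of each gene on each array by group, with circles, squares and triangles for replicates 1, 2 and 3 and a black line for the group mean. Inflamed mucosa has the highest mean in all panels but those of Mmp12 and Mmp7; in the Mmp7 panel it sits at 6.22 ± 0.12 (SD, n = 3), beside normal mucosa at 6.53 ± 0.95.

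Mmp2 (1416136_at), a gelatinase that degrades basement membrane collagen, had 4297, 7719 and 4595 in inflamed mucosa, against 729, 843 and 929 in normal mucosa. It rose by 2.66 ± 0.34 (adjusted p = 2.71e-05), and its second probe set gave 2.50. LGD had 2772, 1572 and 735, HGD at 6 weeks 704, 599 and 619, HGD at 8 weeks 1052, 866 and 1019 and carcinoma 857, 642 and 709.8. Replicate 3 of LGD lay within the normal range, and the HGD arrays at 6 weeks all lay below the lowest normal array. After 2 weeks Mmp2 passed at no stage against normal mucosa; its largest change was 0.82 ± 0.34 in LGD (adjusted p = 0.157).

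Mmp14 (1448383_at), the membrane-bound activator of proMmp2, had 1788, 2127 and 2266 in inflamed mucosa, against 328, 349.6 and 337 in normal mucosa. The arrays of each group lay close together, and the rise of 2.55 ± 0.28 had an adjusted p of 8.61e-06. The lesions stood at 1305, 937 and 504 in LGD, 780.4, 709.7 and 601 in HGD at 6 weeks, 716, 1398 and 1112 in HGD at 8 weeks and 685, 854 and 715 in carcinoma, all above the normal arrays. The other 2 probe sets changed by 1.73 and 2.76 in inflamed mucosa and by 0.35 and 0.74 in carcinoma, against 1.11 there for the main one. The brightest probe set of Mmp14 was above normal on all arrays of every lesion group, and that of Mmp2 in no lesion group. Other probe sets differed. The dimmest one of Mmp14 overlapped normal mucosa at 6 weeks (72.3, 68.2 and 44.5 in HGD, against 45.9, 46.5 and 38.1 in normal mucosa). The second one of Mmp2, 1439364_a_at, lay above every normal array at 8 weeks (1012, 941 and 1007, against 756, 781 and 866).

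Timp1 (1460227_at), the inducible inhibitor, had 2050.2, 6990.5 and 6783 in inflamed mucosa, against 139, 143 and 82.5 in normal mucosa. It rose by 5.10 ± 0.49 (adjusted p = 3.18e-06). Its signals were 1313, 660.2 and 353 in LGD, 407, 375 and 234 in HGD at 6 weeks, 922, 643 and 521 in HGD at 8 weeks and 266, 505 and 424 in carcinoma, all above every normal array. The order by mean was inflamed, LGD, HGD at 8 weeks, carcinoma, HGD at 6 weeks and normal, where LGD overlapped HGD at 8 weeks and carcinoma overlapped HGD at 6 weeks.

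Timp2 (1454677_at) and Timp3 (1449335_at) moved far less. Timp2 had 4042, 4973 and 3179 in inflamed mucosa, against 1765, 2379.9 and 1881 in normal mucosa, a rise of 1.00 ± 0.25 (adjusted p = 0.00436). Of its 5 other probe sets, 3 passed the filter and gave 0.75, 0.65 and 1.78, while the 2 dim ones gave -0.10 and -0.04. Timp3 had 4456, 4324 and 5068 in inflamed mucosa, against 2069, 2362 and 2066 in normal mucosa, a rise of 1.09 ± 0.18 (adjusted p = 2.00e-04), and its other 3 probe sets gave 0.46, 1.19 and 0.83. In the lesions, signals of Timp2 ran between 976 and 2918 and those of Timp3 between 1129.7 and 2474. On these brightest probe sets both genes overlapped the normal arrays in LGD, HGD at 8 weeks and carcinoma. At 6 weeks Timp3 was at 2017, 1129.7 and 2022, below every normal array, with a change of -0.37 ± 0.18 that did not pass (adjusted p = 0.265). Other probe sets differed. At 8 weeks 1460287_at of Timp2 lay above every normal array (1286, 2119 and 1280, against 894, 1222 and 817). For Timp3, 1419089_at and 1449334_at overlapped normal mucosa at 6 weeks. The dimmest, 1419088_at, lay below it at 6 and 8 weeks and in carcinoma.

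**Figure D3:**
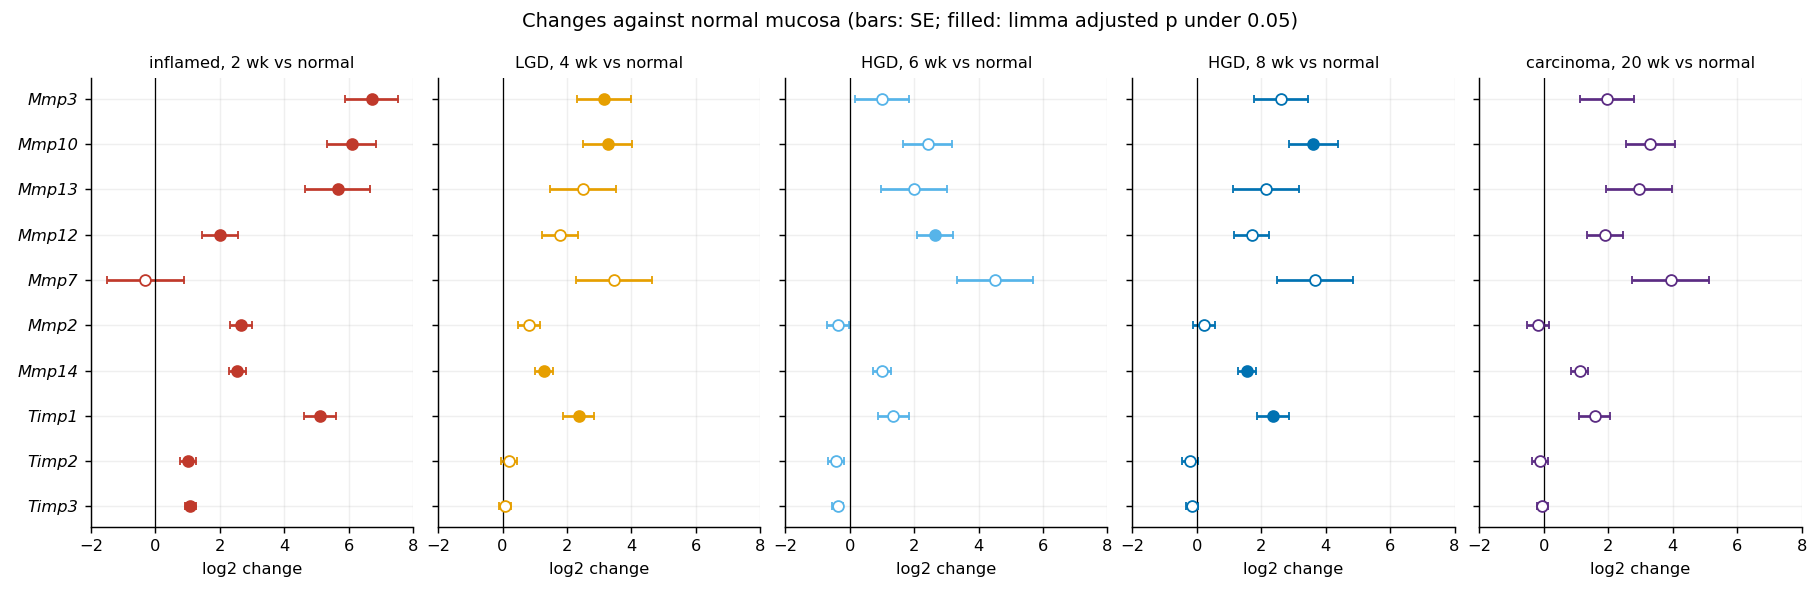
Change of each gene against normal mucosa in 5 panels, 1 per stage, as the difference of log2(signal + 16) with its SE; filled points passed at an adjusted p under 0.05. In inflamed mucosa 9 of 10 points are filled and Mmp7 sits at -0.31, while in carcinoma 0 points are filled and Mmp7 sits at 3.93.

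In low grade dysplasia at 4 weeks, 4 genes rose against normal mucosa: Mmp3 by 3.16 ± 0.83 (adjusted p = 0.0419), Mmp10 by 3.26 ± 0.76 (0.0269), Mmp14 by 1.29 ± 0.28 (0.0202) and Timp1 by 2.36 ± 0.49 (0.0177). Of all genes, 2.61% rose and 3.08% fell. Groups did not overlap, with LGD higher, for 7 genes, which held for 16.3% of all genes (14.0% with LGD lower); Mmp13, Mmp12 and Mmp7 are the 3 of them that did not pass. Mmp7 changed by 3.46 ± 1.19 with an adjusted p of 0.0937, Mmp13 by 2.51 ± 1.02 (0.149) and Mmp12 by 1.79 ± 0.56 (0.0683). Timp2 and Timp3 differed by 0.20 and 0.07. The members' median was 2.08, against 0.02 over all genes. The 4 calls rest on few arrays: 0 genes passed without LGD replicate 1, 0 without LGD replicate 2, 8 without LGD replicate 3, 1 (Timp1) without normal replicate 1, and 0 without normal replicate 2 or 3. The share of all genes called moved likewise: 5.69% with all arrays, 0.878%, 1.13% and 13.9% without LGD replicates 1, 2 and 3, and 1.93%, 0.544% and 1.35% without normal replicates 1, 2 and 3. Across these fits the highest adjusted p was 0.153 for Mmp3, 0.117 for Mmp10, 0.0847 for Mmp14 and 0.0768 for Timp1. LGD replicate 1, the highest of the 3 for all members but Mmp12 and Timp3, also had the highest neutrophil sum. Replicate 3, the lowest for all members but Timp3, had the lowest. In replicates 1, 2 and 3, fibroblast sums (48655, 41335 and 26229) and endothelial sums (1601, 1463 and 1141) fell likewise. Epithelial sums ran the other way (46681, 66049 and 73429), as did those of the colonocyte list (6583, 9747 and 30233). Macrophage sums were 15687, 10057 and 11882. The part of these cell types was not tested.

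In high grade dysplasia at 6 weeks, Mmp12 was the 1 gene that rose, by 2.65 ± 0.56 (adjusted p = 0.0399), where 0.621% of all genes rose and 0.52% fell. Groups did not overlap for 7 genes with HGD higher (17.6% of all genes) and for Mmp2 and Timp3 with HGD lower (17.4%). Mmp7 had the largest change of the 10, 4.51 ± 1.19, and an adjusted p of 0.0761 in limma. Its 3 arrays at 6 weeks lay between 1534 and 2628, and the highest normal array was at 181. The SE pools the spread of all 6 groups. The SD of Mmp7 was 0.40 at 6 weeks and 0.95 in normal mucosa, against 2.14 in LGD and 3.09 at 8 weeks. Beyond these, Mmp10 changed by 2.42 ± 0.76 (adjusted p = 0.114), Mmp13 by 1.99 ± 1.02 (0.297), Timp1 by 1.36 ± 0.49 (0.150), Mmp3 by 1.01 ± 0.83 (0.552) and Mmp14 by 1.00 ± 0.28 (0.0900). Limma called 0 markers of any cell type list here, and the neutrophil sum was 2788 to 9208 in HGD, against 382 to 479 in normal mucosa. The median of the 10 genes was 1.18, against 0.01 over all genes. The call of Mmp12 was lost when any 1 array of either group was left out: its change was then 2.98, 2.30 and 2.67 without HGD replicates 1, 2 and 3 (adjusted p = 0.108, 0.211 and 0.0575), and 2.65, 2.71 and 2.60 without the normal ones (adjusted p = 0.0973, 0.140 and 0.109). The share of all genes called fell likewise from 1.14% with all arrays. It was 0.0621%, 0.0466% and 0.986% without HGD replicates 1, 2 and 3, and 0.155%, 0.0621% and 0.202% without the normal ones.

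At 8 weeks, where the high grade dysplasia was actively inflamed, 3 genes rose: Mmp10 by 3.62 ± 0.76 (adjusted p = 0.0122), Mmp14 by 1.57 ± 0.28 (0.00641) and Timp1 by 2.36 ± 0.49 (0.0116), where 4.84% of all genes rose and 6.42% fell. Groups did not overlap for 5 genes with HGD higher (15.5% of all genes, and 17.9% with HGD lower). The median of the 10 genes was 1.93, against 0.03 over all genes. Mmp3 changed by 2.60 ± 0.83 (adjusted p = 0.0559) and Mmp7 by 3.67 ± 1.19 (0.0576), each with a wide spread; Mmp12 changed by 1.70 ± 0.56 (0.0588) and Mmp13 by 2.15 ± 1.02 (0.172). Mmp2, Timp2 and Timp3 differed by 0.23, -0.21 and -0.14. Of the markers, 2 of 9 for neutrophils rose, 1 of 10 for macrophages rose (C1qa) and 1 fell (Cd163), 1 of 3 on the Paneth list rose (Lyz1) and 2 of 6 for smooth muscle fell; their part was not tested. Replicate 1 stood apart: it had the group's highest Mmp3 and Mmp13 and its lowest Mmp7 and Mmp12, next to the highest neutrophil sum, while its epithelial sum (49977) lay beside those of the other 2 arrays (49531 and 52183). It also had the highest sums for the colonocyte list (16047, against 6583 and 11749) and macrophages (14541, against 8547 and 12514). The same held for fibroblasts (27833, against 24142 and 25474) and endothelium (1344, against 812 and 985). Its smooth muscle sum was the lowest (16896, against 22842 and 18013). On the Paneth list, Itln1 had 281, 3514 and 3613 in replicates 1, 2 and 3, and Ang4 had 1221, 10088 and 9525. Both were low on the array where Mmp7 was low, while Lyz1, the other tested gene of the list, was called higher in this group. The mean change of the list against normal mucosa was -1.23, 1.02 and 1.01. The 3 normal arrays themselves ran at 0.04, -1.12 and 1.08 around their mean, with Mmp7 at 42.1, 181 and 53.6. The part of the list in the level of Mmp7 was not tested. Without replicate 1, Mmp7 changed by 5.45 (adjusted p = 0.00169) and Mmp12 by 2.32 (0.0106), and both passed, which made 5 calls (17.1% of all genes called, against 11.3% with all arrays); Mmp3 changed by 1.41 and did not. Without replicate 2, Mmp3 passed with 3.52 (adjusted p = 0.0279). Without normal replicate 2, Mmp10 was lost at 3.48 (adjusted p = 0.0533).

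**Figure D4:**
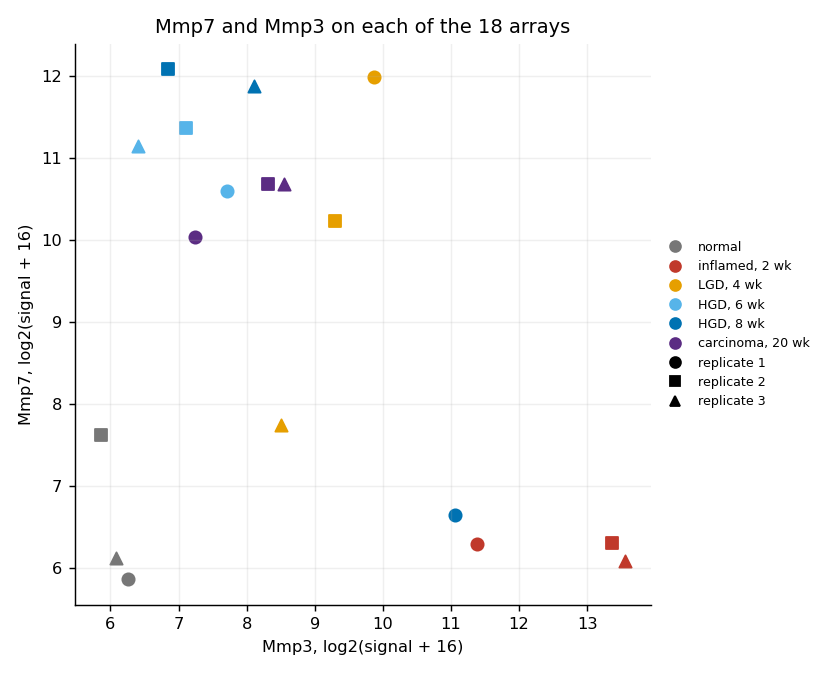
Mmp7 against Mmp3 on each of the 18 arrays, both as log2(signal + 16), coloured by group, with marker shapes for replicates 1, 2 and 3. The 3 inflamed arrays lie at the lower right, most lesion arrays at the upper left or middle, the 3 normal arrays at the lower left, and replicate 1 of HGD at 8 weeks (Mmp3 2118, Mmp7 83.9 in signal) lies beside the lowest inflamed array.

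In carcinoma at 20 weeks, 0 of the 10 genes passed limma's test against normal mucosa, where 0.326% of all genes rose and 0.575% fell. For 7 of the 10 (Mmp3, Mmp10, Mmp13, Mmp12, Mmp7, Mmp14 and Timp1) all carcinoma arrays lay above all normal arrays. This held for 14.4% of all genes, and for 17.1% with carcinoma lower. Mmp7 changed by 3.93 ± 1.19 (adjusted p = 0.111), Mmp10 by 3.31 ± 0.76 (0.0519), Mmp14 by 1.11 ± 0.28 (0.0684) and Timp1 by 1.58 ± 0.49 (0.119). Mmp13 changed by 2.96 ± 1.02 (0.152), Mmp3 by 1.97 ± 0.83 (0.229) and Mmp12 by 1.90 ± 0.56 (0.102). Mmp2 changed by -0.18 ± 0.34, Timp2 by -0.10 ± 0.25 and Timp3 by -0.04 ± 0.18, with 95% intervals of -0.91 to 0.55, -0.64 to 0.43 and -0.42 to 0.34. The median of the 10 genes was 1.74, against -0.02 over all genes. Without carcinoma replicate 1, Mmp10 passed with 3.85 (adjusted p = 0.0344). When the spread was estimated from these 2 groups alone, 7 genes passed, as did 4.11% of all genes, against 0.901% in the fit of all 6 groups.

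Set against inflamed mucosa, LGD at 4 weeks showed 9 differences among the 10 genes: Mmp7 was higher and 8 genes were lower, where 19.3% of all genes were higher and 17.0% lower. The same 9 genes did not overlap between the groups (24.0% of all genes with LGD higher, 21.9% with LGD lower). Mmp7 was higher by 3.77 ± 1.19 (adjusted p = 0.0225). The differences were -3.55 ± 0.83 for Mmp3 (adjusted p = 0.00434), -3.14 ± 1.02 for Mmp13 (0.0260), -2.83 ± 0.76 for Mmp10 (0.00950) and -2.74 ± 0.49 for Timp1 (6.68e-04), and those of Mmp2, Mmp14, Timp2 and Timp3 ran between -1.84 and -0.80. The median difference was -1.55, against 0.02 over all genes. Mmp12 did not pass, with a difference of -0.21 ± 0.56 (95% interval -1.39 to 0.98, adjusted p = 0.801). Epithelial markers moved beside Mmp7 in this comparison, with 11 of 12 higher in LGD (summed signal 46681 to 73429 against 1185 to 29872 in inflamed mucosa). On the Paneth list 2 of 3 were higher (Itln1 by 4.83 and Ang4 by 7.03), as was 1 of 5 on the colonocyte list. Lower were 4 of 10 fibroblast, 3 of 9 neutrophil and 8 of 10 macrophage markers. Against normal mucosa (epithelial sum 61670.2 to 64747), limma called 0 of the 12 epithelial markers and 0 of 3 on the Paneth list in LGD. The part of these cell types in the differences was not tested.

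Several of these calls needed single arrays. The call of Mmp7 was lost without inflamed replicate 2 (3.80, adjusted p = 0.0530), inflamed replicate 3 (3.69, 0.0610), LGD replicate 1 (2.76, 0.0942) or LGD replicate 2 (3.64, 0.0644). That of Mmp13 was lost without inflamed replicate 2 or 3 (-2.86 and -2.86) or LGD replicate 2 (-3.10) or 3 (-2.24). Timp2 was lost without inflamed replicate 2 (-0.64) or LGD replicate 2 (-0.78) or 3 (-0.64), and Mmp10 without LGD replicate 3 (-2.10). With the spread taken from these 2 groups alone Mmp10 and Mmp13 were lost, and with array weights Timp2. The calls of Mmp3, Mmp2, Mmp14, Timp1 and Timp3 were kept in all 17 alternatives.

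Carcinoma against inflamed mucosa gave the same 9 genes in the same directions, where 21.2% of all genes were higher and 21.2% lower, and the groups did not overlap for these 9 (29.3% of all genes with carcinoma higher, 27.6% with carcinoma lower). The comparison shares its 3 inflamed arrays with that of LGD. Mmp7 was higher by 4.24 ± 1.19 (adjusted p = 0.0102), with signals of 1035, 1626 and 1630.3 in carcinoma against 62.3, 62.8 and 51.7 in inflamed mucosa. Among the 8 that were lower, the differences were -4.73 ± 0.83 for Mmp3 (adjusted p = 4.39e-04), -3.52 ± 0.49 for Timp1 (7.25e-05) and -2.84 ± 0.34 for Mmp2 (2.22e-05), with smaller ones of -1.10 for Timp2 and -1.13 for Timp3. Mmp12 differed by -0.10 ± 0.56 (95% interval -1.29 to 1.08). The median difference was -2.06, against -0.00 over all genes. All 12 epithelial markers tested were higher in carcinoma, as were 2 of 3 on the Paneth list (Itln1 by 5.98 and Ang4 by 6.86) and 3 of 5 on the colonocyte list. Lower were 7 of 10 fibroblast, 9 of 9 neutrophil and 10 of 10 macrophage markers. Against normal mucosa, limma called 0 of the 12 epithelial markers and 0 of 3 on the Paneth list in carcinoma. The part of these cell types was not tested. Of the 9 calls, that of Mmp13 (-2.69 ± 1.02, adjusted p = 0.0463) was lost without inflamed replicate 2 or 3 (-2.41 and -2.41) or carcinoma replicate 1 (-2.21) or 3 (-2.63). It was also lost with a pseudocount of 1, with no filter, and with the replicate number added to the model.

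**Figure D5:**
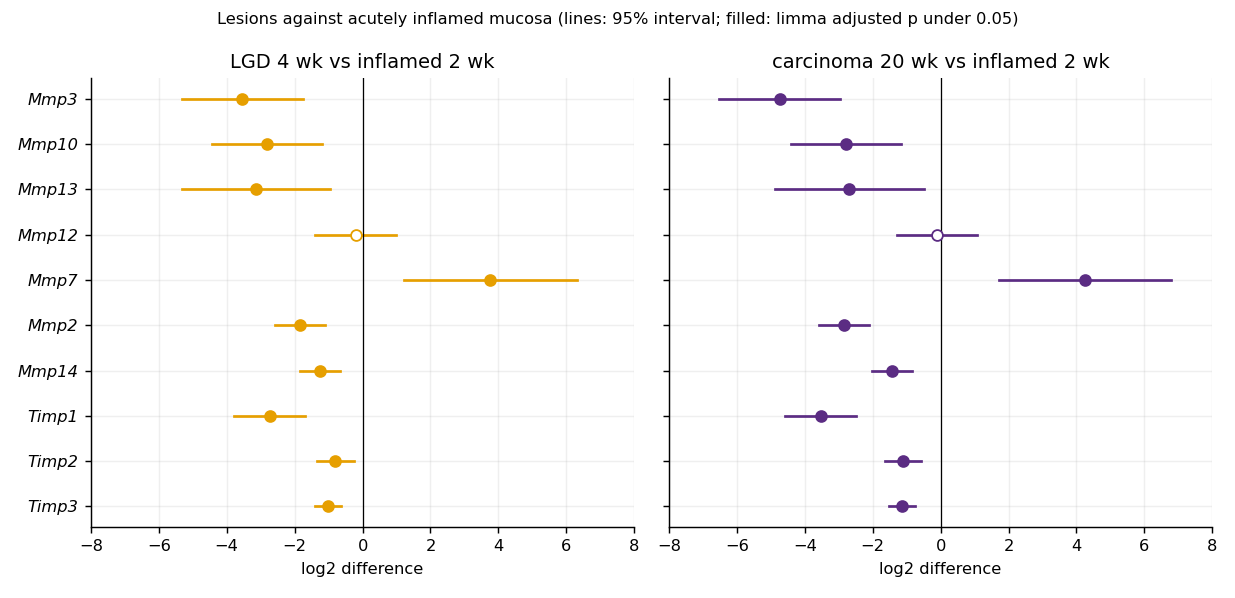
Difference of log2(signal + 16) of each gene in LGD (left) and carcinoma (right) from inflamed mucosa, with 95% intervals as lines; filled points passed at an adjusted p under 0.05. Mmp7 lies right of 0 in both panels (3.77 and 4.24), Mmp12 is open at -0.21 and -0.10, and the other 8 genes lie left of 0.

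Between successive lesions, limma called 0 of the 10 genes in HGD at 6 weeks against LGD, 0 in HGD at 8 weeks against HGD at 6 weeks and 0 in carcinoma against HGD at 8 weeks, as it called 0.0% of all genes in each. From LGD to HGD at 6 weeks, arrays did not overlap for Mmp3, Mmp2 and Timp3, with HGD lower (6.62% of all genes, and 5.72% with HGD higher); Mmp2 differed by -1.19 ± 0.34 (adjusted p = 0.440), and passed without LGD replicate 3 (-1.68, adjusted p = 0.0248). At 8 weeks Mmp2 and Timp1 lay above their values of 6 weeks on all arrays (3.47% of all genes higher, 6.75% lower), Timp1 by 1.00 ± 0.49 (adjusted p = 0.999). In carcinoma the same pair lay below HGD at 8 weeks on all arrays (9.25% of all genes lower, 7.07% higher), Timp1 by -0.79 ± 0.49 (adjusted p = 0.569). The members' medians in these 3 comparisons were -0.57, 0.40 and -0.10, against 0.01, 0.01 and -0.04 over all genes. Over all 6 groups, 10 of 10 genes differed by the limma F test, as did 45.3% of all genes.

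Among other genes of the system, a list of 20 further metalloproteinases, inhibitors and helpers was followed, of which 11 were tested; 5 have no probe set of their own and 4 did not pass the filter. In inflamed mucosa 7 rose and 1 fell, where 22.6% of all genes rose and 24.3% fell. Their median was 0.77, against 0.01 over all genes. The neutrophil enzymes Mmp8 (collagenase) and Mmp9 (gelatinase) rose by 4.84 ± 1.00 (adjusted p = 0.00114) and 3.20 ± 0.67 (0.00122), and both are also on the neutrophil list. Mmp8, a neighbour of Mmp10 on chromosome 9, had 346, 1307 and 1356 in inflamed mucosa, against 10.2, 11.8 and 22.3 in normal mucosa. Mmp19 rose by 2.32 ± 0.34, Mmp23 by 1.27 ± 0.24 and Mmp11, a stromal enzyme, by 0.93 ± 0.21, and Reck, a membrane-anchored inhibitor, by 0.77 ± 0.28 (adjusted p = 0.0374). The gene that fell was the inhibitor Timp4, named after its values were seen, with a change of -0.77 ± 0.24 (adjusted p = 0.0151). Against normal mucosa, limma called 0 of the 11 in LGD, HGD at 6 weeks and carcinoma (5.69%, 1.14% and 0.901% of all genes called). In HGD at 8 weeks it called 1 of 11 (11.3% of all genes), with Reck lower (-0.92 ± 0.28, adjusted p = 0.0490).

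Of 5 genes followed in the flanks of the chromosome 9 run, 4 rose in inflamed mucosa. Dcun1d5, next to Mmp13, rose by 0.80 ± 0.18 (adjusted p = 0.00199) and Tmem123, next to Mmp7, by 1.05 ± 0.18 (2.34e-04). Birc2 rose by 0.87 ± 0.13 and Birc3 by 0.79 ± 0.23, and Yap1 changed by 0.52 ± 0.21 (adjusted p = 0.0519). Within the run, 5 of the 6 tested genes rose at 2 weeks, where 22.6% of all genes rose, by 2.00 (Mmp12) to 6.70 (Mmp3), and Mmp7 at its end did not pass. In HGD at 8 weeks Tmem123 was the 1 flank gene that passed, higher by 0.88 ± 0.18 (adjusted p = 0.0106).

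As a description over the 18 arrays, which share groups and tissue makeup, the genes most like each member were listed by Pearson's r of log2(signal + 16). Mmp7 ran closest to the zinc transporter gene Slc30a2 (r = 0.98), the metallothionein gene Mt4 (0.97) and the Wnt antagonist gene Wif1 (0.97). Mmp2 ran closest to Ppic (0.98), Fstl1 (0.98) and P3h3 (0.98), and Mmp14 to the activin subunit gene Inhbb (0.98), Chst11 (0.97) and Map4k4 (0.97). For Mmp3 they were Tpst2 (0.97), Msn (0.97) and Cyp7b1 (0.96), for Mmp10 1700017B05Rik, Chst11 and Acsl4 (0.95 each), and for Mmp13 the chemokine gene Cxcl3 (0.94), Tmed5 (0.93) and Dio2 (0.93). Timp1 was most like Gpm6b, Col18a1 and Mapkapk2 (0.97 each), Timp2 like Lrp1, Ptprb (0.96 each) and Pbxip1 (0.95), Timp3 like Fermt2, Itgb3 and Tshz3 (0.94 each), and Mmp12 like Avpi1 (0.90), Cnn3 and Tubb2b (0.89 each). Among the members themselves, Mmp3 and Timp1 had r = 0.95 and Mmp10 and Timp1 0.94, while Mmp7 had -0.37 with Mmp3, -0.18 with Timp1 and 0.68 with Mmp12.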

How the data were processed

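Total RNA from 18 samples was hybridised to 1 array each. The deposited values are intensities, 1 linear signal per probe set; MAS5 is the tool listed, per the submitters' processing notes (version, role, scaling target: not given in the sources used here). Array medians ran between 55.7 and 57.8, so no scaling was added. Precision is limited by having 3 arrays a group. Of 45101 probe sets, 34945 are annotated to 1 gene, 932 to several and 9160 to none, beside 64 controls; only the first kind was used. Probe sets with at least 3 of 18 arrays above the table's median were kept, and each gene was represented by the one with the highest mean.

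log2(signal + 16) was fitted with limma 3.58.1 in R 4.3.3 (6 group means, eBayes with an intensity trend, 12 residual degrees of freedom). P-values are 2-sided, adjusted by Benjamini-Hochberg over 12877 genes within a comparison. On data simulated for inflamed against normal mucosa with 12877 genes, 40 of 50 genes changed by 1 on the log2 scale were called, 46 of 50 at 2, 49 of 50 at 4, 50 of 50 at 6, and 12 of 12677 unchanged ones. The simulated noise was normal, independent between genes and of equal spread in all groups, and few genes changed. In the data 46.9% of genes were called in this comparison and spreads differed between groups, so these rates need not hold there. The labels call the replicates biological; their numbers did not pair samples (correlation of same-number deviations -0.46 to 0.33, median -0.00). Groups of 3 against 3 cannot reach below 0.1 in an exact permutation test, so limma's fit across genes was used.

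The members and all lists were chosen with earlier results of these data known. All 10 members are named whatever their result, with up to 6 further family genes of the largest change among those that passed and, as a description, 3 like genes per member. Promoter sequences and gene order are RefSeq's, GRCm38.p6; proteins were not used here. Alternatives tried were pseudocounts of 1 and 64, no filter and a stricter one (9 arrays), quantile normalization, the mean of probe sets, probe sets without cross-binding marks, array weights, no intensity trend, each comparison's groups alone, a replicate block and leaving out each array.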

Additional observations from a re-analysis of the deposited data

Results flagged for a closer look

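The differences between stages listed here were tested directly, by limma on the difference between lesion and inflamed mucosa. They are listed because the change against normal mucosa was not the same at both stages. Of all genes tested, 36.3% were called in LGD against inflamed mucosa and 42.4% in carcinoma against inflamed mucosa. The calls of Mmp7, Mmp10, Mmp13 and Timp2 in LGD, and of Mmp13 in carcinoma, were lost under some alternatives. In LGD against inflamed mucosa, Mmp7 was higher by 3.77 on the log2 scale. In the same comparison the differences were -3.55 for Mmp3, -2.83 for Mmp10, -3.14 for Mmp13, -1.84 for Mmp2, -1.25 for Mmp14, -2.74 for Timp1, -0.80 for Timp2 and -1.01 for Timp3. In carcinoma against inflamed mucosa, Mmp7 was higher by 4.24, and the differences were -4.73 for Mmp3, -2.78 for Mmp10, -2.69 for Mmp13, -2.84 for Mmp2, -1.44 for Mmp14, -3.52 for Timp1, -1.10 for Timp2 and -1.13 for Timp3. Both comparisons share the 3 inflamed arrays. Most markers of epithelium, with Itln1 and Ang4 of the Paneth list, were higher in the lesions than in inflamed mucosa, and several of neutrophils and macrophages lower. Against normal mucosa, limma called 0 of the 12 epithelial markers in LGD and in carcinoma. The part of these cell types was not tested.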

How the results depend on the processing

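The 9 calls in inflamed against normal mucosa were kept under every alternative run, and the 10 genes differing among the groups stayed at 9 to 10. The counts of called genes in the other comparisons with normal mucosa moved with the settings. For LGD (4 genes, 5.69% of all genes) they were 7 with array weights (19.1%), 1 with these 2 groups alone (0.388%), 3 with a pseudocount of 64 or no filter (Mmp3 lost) and 3 with the mean of probe sets (Mmp14 lost), and 0 to 8 when 1 array was left out. For HGD at 6 weeks (1 gene, 1.14% of all) they were 6 with array weights (20.2%) and 5 with the 2 groups alone (12.7%). They were 0 with the replicate block (0.241%) and 0 in every fit with 1 array left out (0.0466% to 0.986%). For HGD at 8 weeks (3 genes, 11.3% of all) they were 5 with a pseudocount of 1 (11.1%), 8 with array weights (51.4%) and 2 to 5 with 1 array left out. For carcinoma (0 genes, 0.901% of all) they were 1 with quantile normalization (1.30%), 1 without the cross-binding probe sets (1.44%), 7 with array weights (22.6%), 7 with the 2 groups alone (4.11%) and 0 to 1 with 1 array left out. HGD at 6 weeks against LGD (0 genes) gave 0 to 1 with 1 array left out, and array weights gave 2 genes in HGD at 8 against 6 weeks and 2 in carcinoma against HGD at 8 weeks (0 each otherwise). LGD against inflamed mucosa ran from 6 to 9 and carcinoma against inflamed mucosa from 8 to 9 with 1 array left out. The first of these gave 7 with the 2 groups alone (Mmp10 and Mmp13 lost) and 8 with array weights (Timp2 lost), and the second 8 with a pseudocount of 1 or no filter (Mmp13 lost). The array weights did not converge (1 array of HGD at 8 weeks took a weight of 136, the next highest was 2.65), which limits those counts; for the others the cause was not tested. The 1 reversal was Mmp7 in HGD at 6 weeks against LGD, -0.075 without LGD replicate 3 (range -0.075 to 2.05 with 1 array left out) against 1.05 with all.

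Replicate numbers did not pair the samples, and the replicate block gave 3 calls in LGD, 0 in HGD at 6 weeks, 3 in HGD at 8 weeks and 8 in carcinoma against inflamed mucosa. Of 62 changes followed, 956 repeats kept direction and side of the threshold, 56 lost the call, 41 gained one and 1 reversed.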
